A study of Mus musculus with 29 samples.

Results

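Hemoglobin genes were followed through 8 members: the alpha-type globin genes Hba-a1, Hba-a2 and Hba-x, the beta-type globin genes Hbb-bs, Hbb-bt, Hbb-y and Hbb-bh1, and Alas2, which encodes the red cell form of the first enzyme of haem synthesis. They were chosen by name, and each matched 1 of the 51912 gene IDs in the deposited count table through its symbol. Hba-x, Hbb-y and Hbb-bh1 are called embryonic here, and Hba-a1, Hba-a2, Hbb-bs and Hbb-bt adult. The study sequenced RNA from dissociated mouse ovary cells of 2 genotypes, Cdkn1b +/+ (wild type) and Cdkn1b -/- (Cdkn1b-null, lacking the cell cycle inhibitor p27Kip1), at 4 ages, namely E13.5 and E18.5 of embryonic life, day 8 after birth (PND8) and 12 weeks of age (12wk). Wild type had 4 libraries at every age. The Cdkn1b-null libraries numbered 4 at E18.5 and 3 at E13.5, PND8 and 12wk, where they carry the replicate numbers 1, 3 and 4. No group received a treatment, and the labels give no strain, litter, pooling of animals or design of the null allele, so p-values below measure only the spread between these libraries, which may in part be technical.

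Hemoglobin joins alpha-type and beta-type chains, each holding a haem. In the mouse the first wave of red cells, made in the yolk sac, circulates with a nucleus and carries the embryonic chains zeta (Hba-x), epsilon-y (Hbb-y) and beta-h1 (Hbb-bh1) along with alpha chains. Red cells made later in the fetal liver and bone marrow carry alpha chains with the adult beta chains, and mature red cells without a nucleus still hold residual globin RNA. The ovary is not known as a site of red cell formation. In bulk RNA, fewer red cells and less globin RNA per red cell cannot be told apart.

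The 29 libraries held about 14095600 to 48213200 counts. The postnatal libraries were deeper, at about 24072400 counts or more, against at most about 24855000 in the embryonic ones, so age step and depth moved together between E18.5 and PND8. Counts at Cdkn1b were lower in every null library than in every wild-type library of the same age, for example 4.53 to 4.91 CPM (counts scaled to a per-million total) against 20.1 to 27.1 CPM at E13.5, and 40.3 to 55.3 against 118 to 240.2 CPM at 12wk. The wild-type replicate 3 at E13.5 stood apart from all other libraries in its globin counts, and results that turn on it are given with and without it.

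The members lie in 2 clusters and 1 separate gene. In GENCODE M21 on the GRCm38 build, Hba-x (chr11:32276400-32278116), Hba-a1 (chr11:32283511-32284465) and Hba-a2 (chr11:32296489-32297298) follow each other on the plus strand, and Hbb-y (chr7:103851749-103853216), Hbb-bh1 (chr7:103841637-103843164), Hbb-bs (chr7:103826534-103828096) and Hbb-bt (chr7:103812524-103813996) on the minus strand. Each has 3 exons. In both clusters the embryonic genes come first in the direction of transcription. Alas2 (chrX:150547375-150570638, plus strand) has 11 exons.

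Because counts are assigned by sequence, how alike the members are decides which of their values stand alone. Hba-a1 and Hba-a2 differ at 1 of 429 coding bases, base 381 from the start codon, which is position 3 of codon 127. Of all 50-base stretches of the Hba-a1 transcript, 67.5% also occur in Hba-a2, and 86.9% the other way. The stretch of coding bases 351 to 410 (GENCODE M21) holds that base, shown in capitals:
Hba-a1: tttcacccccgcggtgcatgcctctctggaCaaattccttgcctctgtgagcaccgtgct
Hba-a2: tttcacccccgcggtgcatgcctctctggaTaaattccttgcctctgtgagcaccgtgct
Hbb-bs and Hbb-bt likewise differ at 1 of 444 coding bases, base 417 in codon 139, and share 65.8% and 58.3% of their 50-base stretches. Their last 60 coding bases, 385 to 444, show it in capitals:
Hbb-bs: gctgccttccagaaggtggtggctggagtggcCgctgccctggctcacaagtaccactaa
Hbb-bt: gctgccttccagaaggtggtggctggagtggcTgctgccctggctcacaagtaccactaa
The embryonic genes are far from the adult ones. Hbb-y differs from Hbb-bs at 114 of 444 coding bases, with 24 of them in the stretch from 205 to 264, in capitals in both:
Hbb-y: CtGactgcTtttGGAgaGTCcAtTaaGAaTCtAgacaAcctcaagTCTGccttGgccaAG
Hbb-bs: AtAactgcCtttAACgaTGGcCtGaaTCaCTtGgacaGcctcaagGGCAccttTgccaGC
Hba-x and Hba-a1 matched at 62.0% of 429 coding bases. No 50-base stretch was shared between any embryonic and any adult member, so the embryonic against adult share does not depend on how shared reads were divided, whereas the splits within Hba-a1 and Hba-a2 and within Hbb-bs and Hbb-bt do and are uncertain.

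The start-site flanks are shown for 1 adult and 1 embryonic gene whose levels part after E13.5. RefSeq (GRCm38.p6) gave a flank for 7 of the 8 members, all but Hbb-bh1, and the 150 bases before the start were searched on both strands for CACCC, for CCAAT, for GATAA, for TATAA and for ATAAA, of which TATAA and ATAAA overlap where both occur (matches in capitals):
Hba-a2, chr11:32296342-32296491, plus strand: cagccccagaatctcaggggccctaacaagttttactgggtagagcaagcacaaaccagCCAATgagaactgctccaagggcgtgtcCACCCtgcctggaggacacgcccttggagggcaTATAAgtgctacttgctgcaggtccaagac
Hbb-y, chr7:103853208-103853357, minus strand: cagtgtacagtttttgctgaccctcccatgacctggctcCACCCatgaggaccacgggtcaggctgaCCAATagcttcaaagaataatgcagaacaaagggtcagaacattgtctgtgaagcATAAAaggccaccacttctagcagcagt
CACCC, the core of the element that the red cell factor KLF1 is known to bind, lay in all 7 windows, and in 37.4% of the 32851 promoter windows of that length in the table. CCAAT lay in 5 of the 7 (Hba-a1, Hba-a2, Hbb-y, Hbb-bs and Hbb-bt) and in 24.5% of all windows, GATAA in Hba-x and Alas2 and in 13.3%. TATAA, the core of the box that places the start, lay in 5, with 14.2% of all windows, and the Hbb-y window had ATAAA instead, which 24.1% of all windows hold. The Hba-a1 and Hba-a2 windows share a run of 147 of 150 bases, so where both are counted they are nearly 1 sequence. These matches describe the letters only.

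Globin RNA fell to a trace between E18.5 and PND8, and its embryonic part had fallen earlier, between E13.5 and E18.5. At E13.5 the 7 globins took 0.702%, 0.791%, 19.0% and 1.05% of all counts in wild-type replicates 1 to 4, and 0.83%, 1.02% and 0.701% in Cdkn1b-null replicates 1, 3 and 4. At E18.5 the shares were 2.70%, 0.738%, 3.59% and 0.180% in wild type and 2.62%, 0.194%, 1.35% and 0.172% in null. The lowest and highest E18.5 libraries thus differed more than the genotypes did, and the replicates numbered 1 and 3 were high and 2 and 4 low in both genotypes. At PND8 the shares were 0.0172%, 0.000673%, 0.00100% and 0.0119% in wild type and 0.165%, 0.0219% and 0.0143% in null. At 12wk they were 0.0156%, 0.00772%, 0.00914% and 0.0113% in wild type and 0.0219%, 0.0199% and 0.0798% in null. Every embryonic library lay above every postnatal one, with the highest postnatal value, of a PND8 null library, near the lowest E18.5 values.

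**Figure D1:**
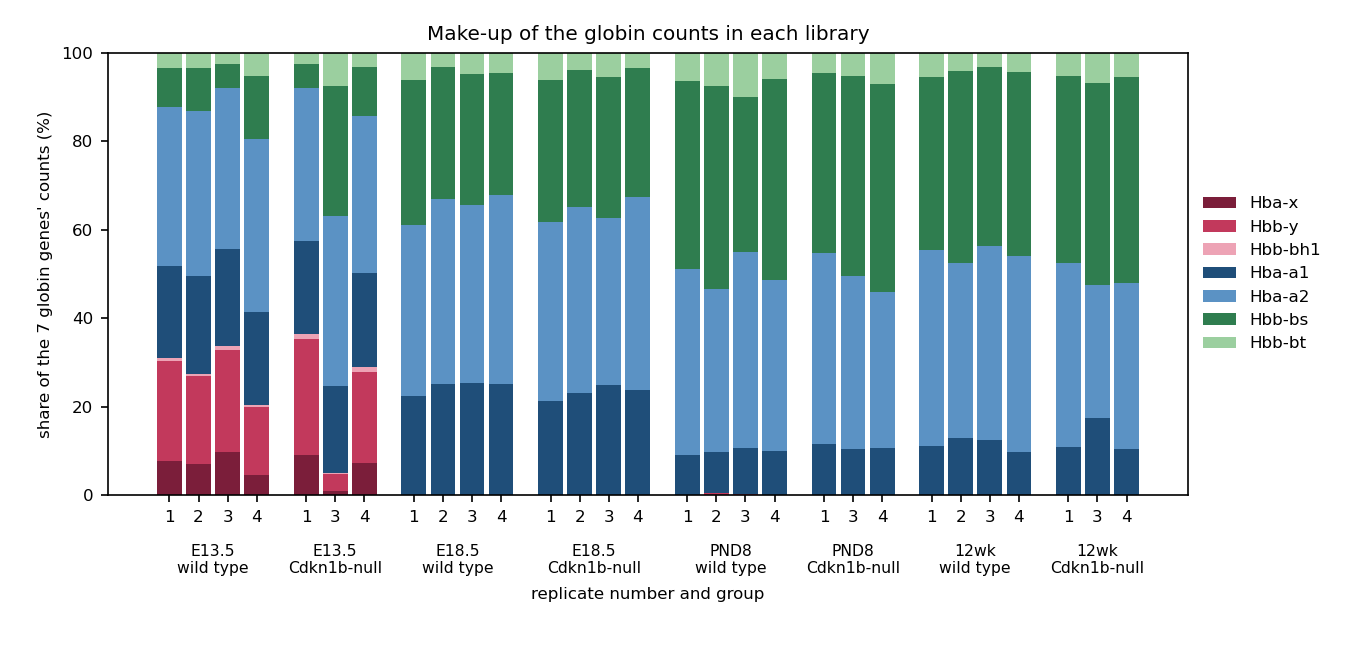
Stacked bars show what share of the counts at the 7 globin genes each gene took, in percent (vertical axis, from 0), in each of the 29 libraries, ordered by age, genotype and replicate. Embryonic genes make up 20.3% to 36.3% in 6 of the 7 E13.5 libraries and 4.94% in null replicate 3, and no visible part at the later ages.

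At E13.5 embryonic genes gave a large part of the globin counts. The embryonic share was 30.9%, 27.3%, 33.6% and 20.3% in wild-type replicates 1 to 4, and 36.3%, 4.94% and 28.8% in Cdkn1b-null replicates 1, 3 and 4. Counting intervals were narrow (Wilson 95% interval 20.2% to 20.5% for wild-type replicate 4 and 4.85% to 5.02% for null replicate 3), and cover counting error only, so the libraries differed among themselves by far more than counting. The library richest in globin, wild-type replicate 3, had the highest embryonic share of the wild type, close to replicate 1, whereas null replicate 3, with an ordinary globin share of 1.02%, stood below all others. Mean shares were 28.0% ± 5.76 (SD, n = 4) in wild type and 23.4% ± 16.4 (SD, n = 3) in null, and an exact two-sided permutation test gave p = 0.743 (adjusted p = 0.908 over 20 share tests). Without null replicate 3 the null mean lay above the wild-type mean, by 4.55 percentage points.

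By E18.5 the embryonic share had dropped to 0.00919%, 0.000752%, 0.00208% and 0.0532% in wild-type replicates 1 to 4 and to 0.00218%, 0.0204%, 0.00496% and 0.0977% in null. The 2 libraries with the highest share, both replicate 4, were those with the fewest globin counts in their genotype. All 8 lay below the lowest E13.5 share, 4.94%. From E13.5 to E18.5 the mean share fell by 28.0 percentage points in wild type (exact two-sided permutation test, p = 0.0286, the smallest that 4 against 4 libraries allow; adjusted p = 0.143 over 20 tests) and by 23.3 points in null (exact p = 0.0571, the smallest that 3 against 4 allow; adjusted p = 0.143). Neither passes the threshold of 0.05 after adjustment, which this number of libraries and tests could not reach at those values.

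After birth the embryonic share rested on at most 4 counts in a library. PND8 wild-type libraries had 4, 1, 1 and 3 embryonic counts and null libraries 2, 0 and 0, and at 12wk wild type had 1, 0, 0 and 1 and null 1, 0 and 2. All of these counts were at Hbb-y. Where the count was 0, the share could still have been up to 0.0364% and 0.0607% in the PND8 null libraries, up to 0.113% and 0.0966% in 12wk wild type and up to 0.0367% in 12wk null, taking 3 counts as the limit. The apparent shares of 0.361% and 0.238% in PND8 wild-type replicates 2 and 3 come from 1 count each among few globin counts, and no difference between groups was read from the postnatal shares.

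Hbb-y, the epsilon-y chain, was the most abundant embryonic member. At E13.5 it had 1591, 1572, 43572 and 1603 CPM in wild-type replicates 1 to 4 and 2173, 385 and 1454 CPM in null replicates 1, 3 and 4. Wild-type replicate 3 is more than an order of magnitude above the rest, the other wild-type libraries are nearly equal, and the genotypes overlap. At E18.5 its counts were 25, 1, 5 and 15 in wild type and 5, 7, 7 and 18 in null, at most 1.44 CPM, so it was still detected in all 8 libraries.

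Hba-x, the zeta chain and the only embryonic alpha-type gene, had 533, 558, 18609 and 484 CPM in the E13.5 wild-type libraries and 754, 103 and 504 CPM in the null ones. As for Hbb-y, null replicate 3 was lowest and wild-type replicate 3 highest, while the libraries between them came in another order. At E18.5 its counts were 9, 0, 1 and 0 in wild type and 2, 0, 4 and 0 in null, all in the replicates numbered 1 and 3, which had the most globin. In the 14 postnatal libraries it was at 0, which at 3 counts allows 0.0622 to 0.125 CPM.

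Hbb-bh1, the beta-h1 chain, was the least abundant, with 42.4, 31.6, 1622 and 42.3 CPM in wild type at E13.5 and 86.1, 15.4 and 65.0 CPM in null. It made up 1.97% to 3.59% of the embryonic beta-type counts in wild type and 3.81% to 4.28% in null, so each null library lay above each wild-type one in this share. That difference was noticed in the data and not tested. E18.5 counts of Hbb-bh1 were 9, 0, 8 and 5 in wild type and 6, 0, 2 and 15 in null, and all 14 postnatal libraries were at 0. Within the embryonic set, Hbb-y gave 68.3% to 76.5% of the counts at E13.5 and Hba-x 20.5% to 29.2%, a narrow range next to the spread in total level.

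**Figure D2:**
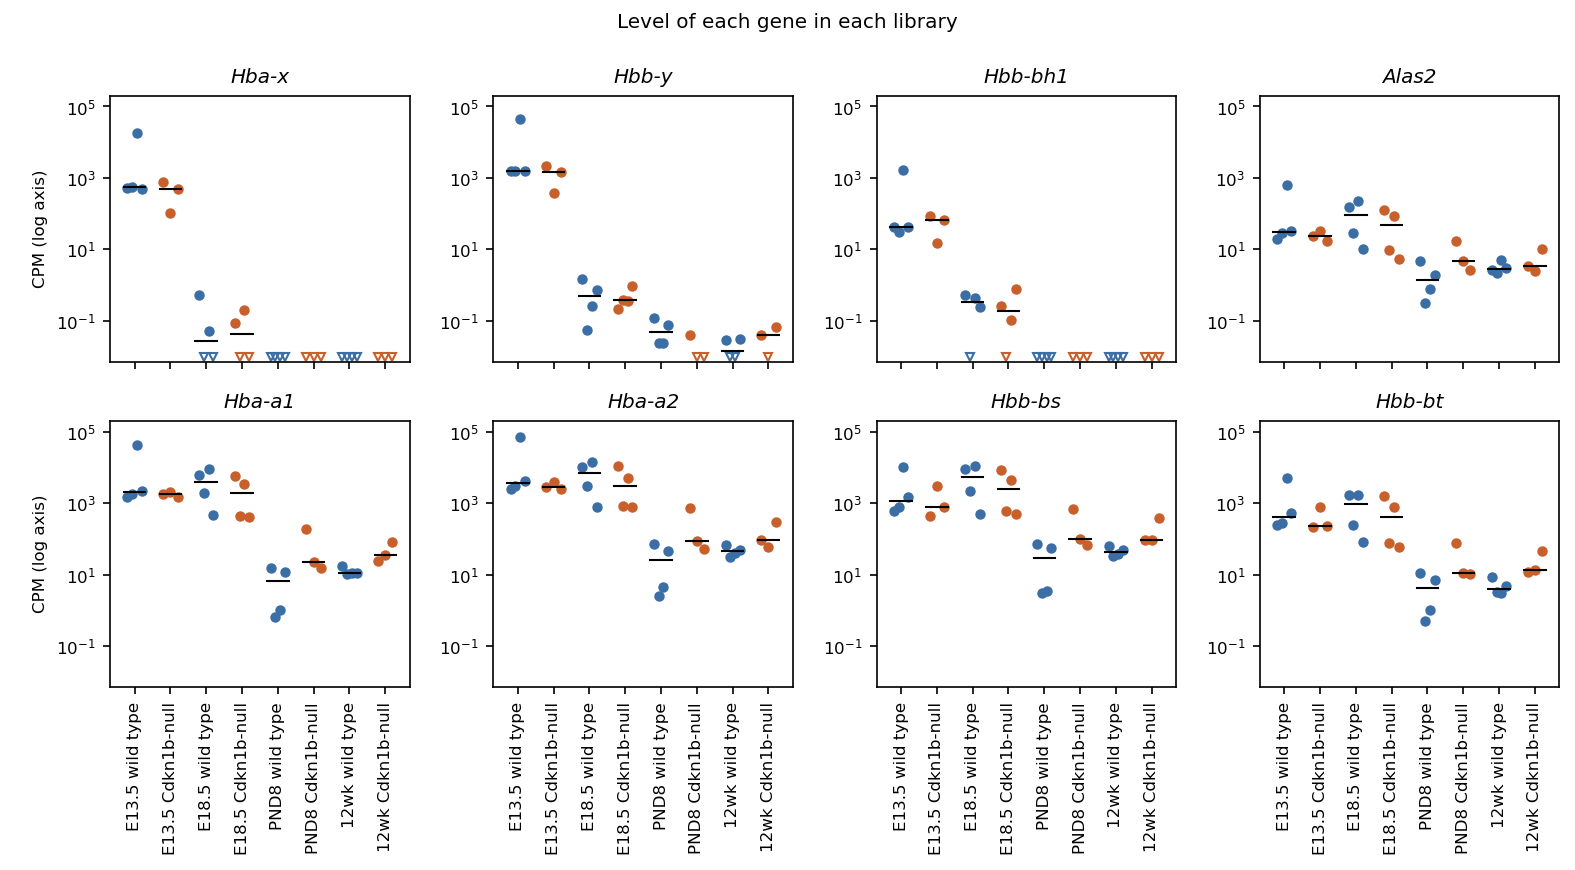
Each panel plots 1 member: CPM per library on a log axis against age, wild type in blue and Cdkn1b-null in orange, with the median of each group as a black line and open triangles at the foot for libraries below the axis. The 3 embryonic genes drop out after E13.5, the 4 adult genes and Alas2 after E18.5, and wild-type replicate 3 tops each panel at E13.5.

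The fall of the embryonic genes from E13.5 to E18.5 passed the test in both genotypes. In edgeR's quasi-likelihood test with Benjamini-Hochberg adjustment over all genes, the log2 fold change in wild type was -15.41 (SE 2.62, adjusted p = 0.00404) for Hba-x, -14.54 (SE 2.27, adjusted p = 0.00248) for Hbb-y and -10.79 (SE 2.32, adjusted p = 0.0111) for Hbb-bh1. In null it was -12.47 (SE 1.12, adjusted p = 0.000867), -11.49 (SE 0.86, adjusted p = 0.00038) and -7.59 (SE 0.92, adjusted p = 0.00173). These sizes rest on few E18.5 counts, 10 in all for wild-type Hba-x and 6 for null. The wild-type values also rest on replicate 3, without which they were -11.93, -11.39 and -7.08, all still called. Thus 3 of the 8 members fell in each genotype, against 17.5% of 16603 genes called lower in wild type and 14.5% of 16598 in null. The same 3 were those without overlap between the ages, a state shared by 33.8% of genes tested in wild type and 39.9% in null. All 3 passed the filter on low counts through their E13.5 levels alone.

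The adult alpha genes, Hba-a1 and Hba-a2, were the largest source of globin counts at E13.5 and E18.5. Their 1 differing coding base does not change the amino acid, so in GENCODE M21 both encode the same alpha chain. Hba-a2 had 2523, 2958, 69204 and 4103 CPM in E13.5 wild type and 2874, 3925 and 2488 CPM in null, then 10431, 3088, 14452 and 769 CPM in E18.5 wild type and 10658, 819, 5114 and 753 CPM in null. Hba-a1 ran beside it, with 1472, 1755, 41555 and 2217 CPM in E13.5 wild type and 1739.8, 1997 and 1505 CPM in null, and 6065, 1851, 9123 and 449.9 CPM in E18.5 wild type and 5560.3, 447, 3349.7 and 406 CPM in null. Apart from wild-type replicate 3, the E13.5 libraries of both genes form 1 narrow band that the wider E18.5 range spans on both sides.

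After birth Hba-a2 had 72.2, 2.48, 4.45 and 46.1 CPM in PND8 wild type and 711, 86.1 and 50.5 CPM in null, and at 12wk 68.9, 30.5, 40.1 and 50.2 CPM in wild type and 91.5, 59.6 and 299.7 CPM in null. Hba-a1 had 15.4, 0.630, 1.04 and 11.8 CPM in PND8 wild type and 188, 22.6 and 15.3 CPM in null, and at 12wk 17.4, 10.0, 11.3 and 10.9 CPM in wild type and 23.7, 34.8 and 83.3 CPM in null. PND8 wild type splits into replicates 1 and 4, near the 12wk level, and replicates 2 and 3, an order of magnitude lower. Endothelial markers, a list of 10 genes of the vessel lining, summed to 436 and 594 CPM in PND8 wild-type replicates 1 and 4 and to 277 and 316 CPM in 2 and 3, and their part in the globin difference was not tested.

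The adult beta genes, Hbb-bs and Hbb-bt, encode the chains that pair with alpha chains in fetal and adult red cells. Hbb-bs had 610.1, 754, 10213 and 1494 CPM in E13.5 wild type and 445, 3008 and 766 CPM in null. Its highest E13.5 null library was replicate 3, the one with the lowest embryonic share, and only wild-type replicate 3 was above it. At E18.5 Hbb-bs had 8822, 2202, 10629 and 497 CPM in wild type and 8414, 599, 4306 and 503 CPM in null. Values at PND8 were 73.2, 3.09, 3.51 and 54.2 CPM in wild type and 671, 99.2 and 67.2 CPM in null, and at 12wk 60.9, 33.4, 37.1 and 47.2 CPM in wild type and 92.7, 91.3 and 370.1 CPM in null. Hbb-bt followed at a lower level, from 217 to 4917 CPM at E13.5 and 58.8 to 1707 CPM at E18.5 to 0.505 to 75.7 CPM at PND8 and 2.95 to 44.3 CPM at 12wk.

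Alas2 gates haem supply in developing red cells and is itself red cell specific. It had 19.4, 29.4, 628 and 32.5 CPM in E13.5 wild type and 23.3, 32.4 and 17.4 CPM in null, then 155, 28.7, 230.2 and 10.4 CPM in E18.5 wild type and 129.5, 9.59, 87.7 and 5.35 CPM in null. At PND8 it had 4.60, 0.319, 0.775 and 1.98 CPM in wild type and 17.8, 4.76 and 2.74 CPM in null, and at 12wk 2.70, 2.18, 5.20 and 3.11 CPM in wild type and 3.36, 2.46 and 10.2 CPM in null. At E18.5 its 5 highest libraries were those with the highest globin shares, in the same order, whereas at 12wk the orders differed, with wild-type replicate 3 second in Alas2 and second lowest in adult globin. Set against globin, however, it was not constant: there were 2.49 to 3.71 Alas2 counts per 1000 globin counts at E13.5, 3.10 to 6.48 at E18.5 and 10.8 to 77.3 in the postnatal libraries, so postnatal globin fell further than Alas2 did. No test was run on this ratio.

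None of the adult globins, nor Alas2, passed the test between E13.5 and E18.5. In wild type the log2 fold changes were -1.70 (SE 1.44) for Hba-a1, -1.73 (SE 1.42) for Hba-a2, 0.51 (SE 1.24) for Hbb-bs, -0.95 (SE 1.38) for Hbb-bt and -1.01 (SE 1.48) for Alas2. Without wild-type replicate 3 at E13.5 all 5 were above 0, at 1.20, 1.10, 2.47, 1.32 and 1.90, and still not called by edgeR. In null they were 0.44, 0.44, 1.25, 0.59 and 1.21, with edgeR adjusted p from 0.470 to 0.777. The groups overlapped for all 5 genes in both genotypes.

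From E18.5 to PND8 the adult genes fell in wild type. Hba-a1 changed by a log2 fold change of -9.04 (SE 1.49, 525-fold lower), Hba-a2 by -7.63 (SE 1.47, 198-fold), Hbb-bs by -7.16 (SE 1.48, 143-fold), Hbb-bt by -7.35 (SE 1.38, 164-fold) and Alas2 by -5.61 (SE 1.15, 48.8-fold), with edgeR adjusted p from 0.000445 to 0.0018. All 5 members tested were called lower and none overlapped between the ages, in a step where 36.9% of 17421 genes were called lower and 70.9% did not overlap. In null, Hba-a1 passed (log2 fold change -4.79, SE 1.68, edgeR adjusted p = 0.0424), while Hba-a2 (-3.72, adjusted p = 0.0804), Hbb-bs (-3.41, adjusted p = 0.0917), Hbb-bt (-4.03, adjusted p = 0.0755) and Alas2 (-2.54, adjusted p = 0.147) did not in edgeR's test. That is 1 of 5 called, against 38.5% of 17245 genes called lower, and 2 of 5 without overlap (Hba-a1 and Hba-a2), against 78.5%. Hba-a1 and Hba-a2 share reads, as do Hbb-bs and Hbb-bt, so these are not 5 separate results. In null Hba-a1 took 34.3% to 39.6% of the adult alpha counts at E18.5 and 20.8% to 23.2% at PND8. The larger fall of Hba-a1 than of Hba-a2 therefore rests on how shared reads were divided, and is uncertain. The 4 E18.5 null libraries spanned 503 to 8414 CPM of Hbb-bs, and PND8 null replicate 1, at 671 CPM, lay above 2 of them. Taking the replicate number as a block, all 5 were called in null.

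Over all globins the share of counts went from 1.80% ± 1.61 (SD, n = 4) at E18.5 to 0.00770% ± 0.00821 (SD, n = 4) at PND8 in wild type (exact two-sided permutation test, p = 0.0286, the smallest possible, adjusted p = 0.143) and from 1.09% ± 1.16 (n = 4) to 0.0669% ± 0.0846 (n = 3) in null (exact p = 0.0571, the smallest possible, adjusted p = 0.143). Both pairs of groups were fully separated. The file header names 2 sequencing projects joined in the table without saying which libraries belong to which, so a project difference between the embryonic and postnatal libraries cannot be told apart from age.

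Between PND8 and 12wk no member passed the test in either genotype. Wild-type log2 fold changes lay between -0.03 for Hbb-bt and 0.79 for Alas2, and null ones between -0.91 for Hba-a2 and -0.49 for Hbb-bt. In wild type 0 of 5 members were called, against 30.5% of 17293 genes in either direction, and in null 0 of 5, against 29.1% of 17437. The embryonic genes were too low to be tested after E18.5.

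**Figure D3:**
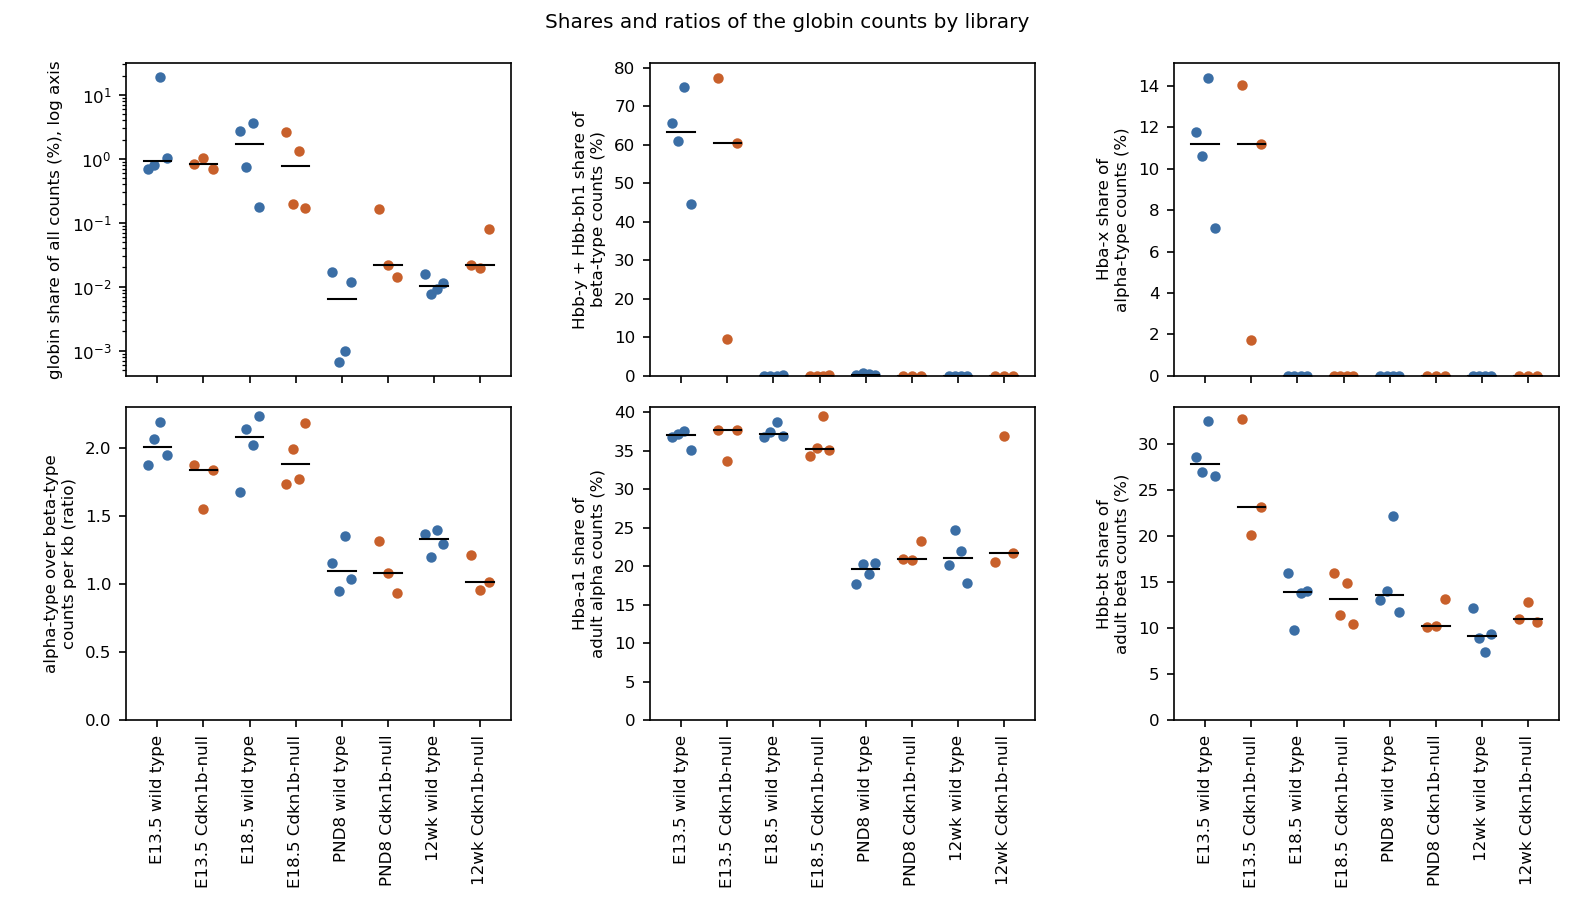
Each of 6 panels plots 1 ratio per library against age, wild type in blue and Cdkn1b-null in orange: the globin share of all counts (percent, log axis), the embryonic share of beta-type counts, the Hba-x share of alpha-type counts, alpha-type over beta-type counts per kilobase, the Hba-a1 share of adult alpha counts and the Hbb-bt share of adult beta counts. The embryonic shares leave their E13.5 level by E18.5, the alpha to beta ratio steps down from E18.5 to PND8, and the Hbb-bt share has its highest values at E13.5.

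The switch was uneven between the chain types at E13.5. Embryonic genes gave 65.6%, 60.8%, 74.9% and 44.7% of the beta-type counts in wild type and 77.3%, 9.61% and 60.4% in null, but Hba-x gave only 11.8%, 10.6%, 14.4% and 7.12% of the alpha-type counts in wild type and 14.0%, 1.71% and 11.2% in null. In each of the 7 libraries the beta-type share was the larger. Adult alpha exceeded adult beta at E13.5, with a ratio of counts per kilobase of transcript of 3.36 to 7.93 in wild type and 1.70 to 7.55 in null, against 1.67 to 2.24 over the E18.5 libraries. When embryonic chains were included, the alpha-type to beta-type ratio per kilobase was 1.88, 2.07, 2.19 and 1.95 in E13.5 wild type and 1.88, 1.55 and 1.84 in null, and 1.67 to 2.24 at E18.5. The total ratio overlapped between the ages.

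After birth the alpha-type to beta-type ratio was lower, 1.15, 0.947, 1.35 and 1.04 at PND8 in wild type and 1.32, 1.08 and 0.932 in null, and 1.37, 1.20, 1.40 and 1.29 at 12wk in wild type and 1.21, 0.957 and 1.01 in null. No postnatal library reached the lowest embryonic one, 1.55 per kilobase. Postnatal alpha counts also divided differently: Hba-a1 took 33.7% to 39.6% of the adult alpha counts in the 15 embryonic libraries and 17.6% to 24.7% in 13 of the 14 postnatal ones, with 12wk null replicate 3 at 36.9%. In adult beta counts, Hbb-bt took 20.1% to 32.7% at E13.5, 9.80% to 16.0% at E18.5, 10.1% to 22.1% at PND8 and 7.38% to 12.8% at 12wk. These splits within pairs rest on how shared reads were divided. Depth moved together with age between E18.5 and PND8, and which libraries belong to which project is not known. The part of each was not tested.

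Per kilobase of transcript, which allows a comparison between genes, the median level in E13.5 wild type ran from Hba-a2 (6373 CPM per kilobase) over Hba-a1 (2841), Hbb-y (2523), Hbb-bs (1790), Hba-x (681) and Hbb-bt (581) to Hbb-bh1 (69.1) and Alas2 (15.2). Hba-a1 and Hbb-y lay close, while Hbb-y exceeded Hbb-bs by median. At E18.5 the wild-type order was Hba-a2 (12202), Hbb-bs (8777), Hba-a1 (5662), Hbb-bt (1363), Alas2 (45.1), Hbb-y (0.778), Hbb-bh1 (0.544) and Hba-x (0.0334 CPM per kilobase). Hbb-y thus fell below Alas2 in the order, and Hbb-bs moved above Hba-a1. At both ages the spread over the 4 libraries was wide, but each wild-type library held the 4 adult globins in the order of their medians. The order within Hba-a1 and Hba-a2 and within Hbb-bs and Hbb-bt rests on how shared reads were divided, and no order was tested.

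In the E13.5 wild-type replicate 3, the embryonic genes were raised more than the adult ones. Over the mean of the other 3 wild-type libraries it was higher 35.4-fold at Hba-x, 27.4-fold at Hbb-y and 41.8-fold at Hbb-bh1, against 22.9-fold at Hba-a1, 21.7-fold at Hba-a2, 10.7-fold at Hbb-bs and 13.9-fold at Hbb-bt, with Alas2 at 23.2-fold. Embryonic globins together were 29.6-fold and adult ones 19.9-fold higher. Further minor globins moved with them: Hbq1b, a theta globin, had 33.1 CPM against 0.599 to 2.32 CPM in the other 6 E13.5 libraries, and Hbb-bh0 had 5.89 against 0.0402 to 0.366 CPM.

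Summed red cell genes outside the globins were also highest there, and of the lists for other cell types only the summed platelet markers were. Of 17 red cell membrane genes 15 were highest in this library, summing to 2130.3 CPM against 213 to 468 CPM in the other 6. Slc4a1, the band 3 anion exchanger, had 794 CPM against 14.7 to 74.0 CPM. All 15 other red cell genes found in the table were highest there too, among them Car2, carbonic anhydrase 2, with 1312 CPM against 40.5 to 218 CPM. Haem synthesis genes divided, with 7 of 13 highest and 2 lowest there. Fech, which inserts iron into haem, had 745 CPM against 113 to 176 CPM, whereas Alas1, the form of the first enzyme used outside red cells, had 58.9 against 85.8 to 117 CPM, and the list summed to 2142 against 923 to 1423 CPM. Iron handling genes summed to 9376 against 4221 to 5015 CPM, but only 3 of 8 were highest there and 2 were lowest. Of 13 erythroid transcription factors 10 were highest, with a sum of 422 against 119 to 239 CPM, and of 8 platelet markers 5, with a sum of 70.0 CPM against 9.75 to 49.6 CPM. The lists of the remaining cell types lay within or below the others. Leukocyte markers (123 CPM, others 106 to 502), germ cell markers (353, others 216 to 616), liver markers (20.9, others 2.87 to 114) and globin switching regulators (544, others 457 to 547) lay within the range of the other libraries. Endothelial markers (261 CPM, others 301 to 510), ovary somatic markers (712, others 850.4 to 1374) and mesonephros markers (31.4, others 39.9 to 201) lay below it, and adrenal and sympathetic markers (16.2 CPM, others 1.80 to 314) within it. Globins took 19.0% of all counts in this library and at most 1.05% in the other 6, which lowers the CPM of every other gene there. Sums near an end of the range, such as those of endothelial, ovary somatic and switching regulator genes, may change side over counts without globins. Such sums were not computed. Of the 9 switching regulators, 7 were individually highest there and 2 lowest. At about 14095600 counts it was also the smallest of the 29 libraries.

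**Figure D4:**
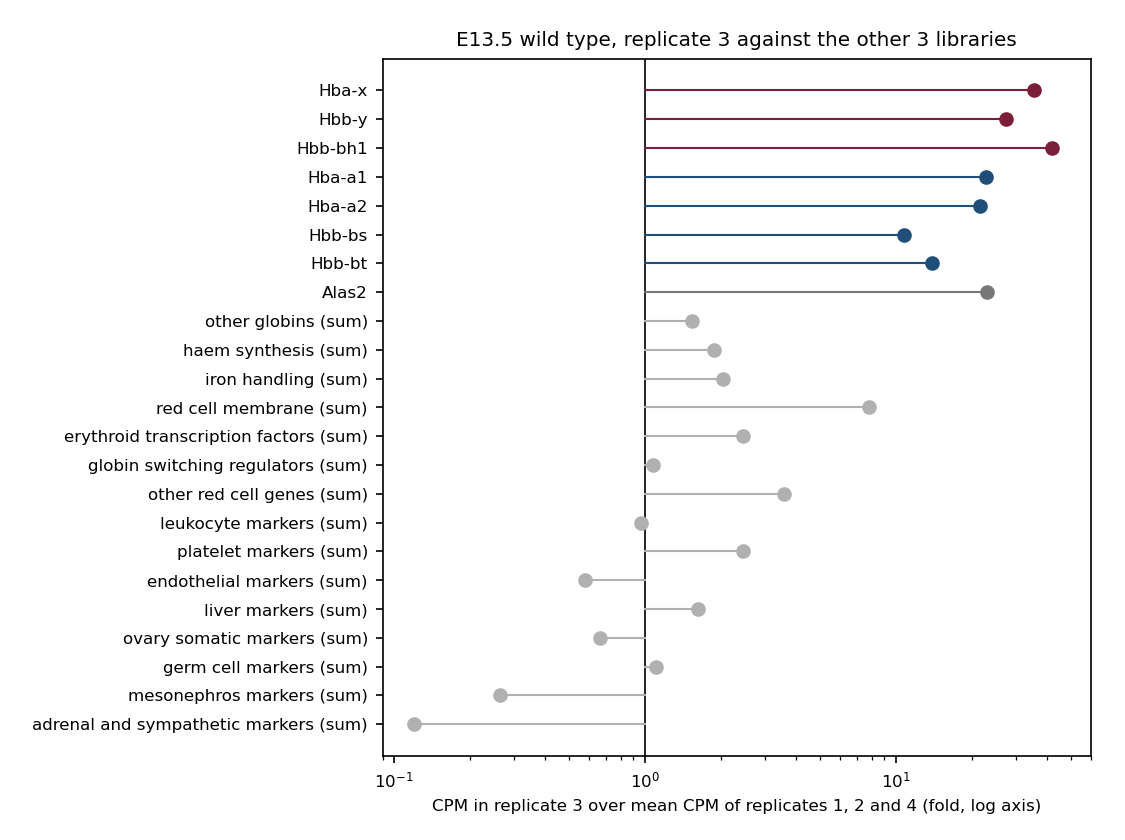
Bars give the fold of wild-type replicate 3 at E13.5 over the mean of the other 3 wild-type libraries (log axis), for each member and for the summed CPM of each of 15 gene lists. Members reach 10.7- to 41.8-fold, red cell membrane genes 7.79-fold and other red cell genes 3.60-fold, while leukocyte and germ cell markers stay near 1.

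Cdkn1b-null replicate 3 at E13.5 had the opposite profile. Its adult beta genes were high (Hbb-bs 3008 CPM, against 445 and 766 CPM in the other null libraries) and its embryonic genes low (Hbb-y 385 CPM against 2173 and 1454 CPM), so total globin was ordinary. The membrane gene Slc4a1 was high as well, with 74.0 CPM against 36.5 and 19.0 CPM. Other markers also set this library apart. Germ cell markers summed to 616 CPM against 216 and 418 CPM in the other null libraries, and liver markers to 114 against 10.2 and 2.87 CPM. Meiotic genes, picked after the globin shares were seen, were several-fold higher: Stra8, which starts meiosis, had 77.8 CPM against 2.79 to 11.3 CPM in the other 6 E13.5 libraries, and Sycp3, of the synaptonemal complex, 98.9 against 10.1 to 25.5 CPM. Whether these differences and the globin share have a common source was not tested.

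At E18.5 Slc4a1 followed the replicate number rather than the genotype. It had 282, 1.89, 409.8 and 1.39 CPM in wild-type replicates 1 to 4 and 52.9, 0.851, 226 and 0.408 CPM in null. The globin shares are high in the same 4 libraries, but not in proportion. Wild-type and null replicate 1 had nearly equal globin shares, 2.70% and 2.62%, with Slc4a1 at 282 and 52.9 CPM. Wild-type replicate 2 still had 0.738% globin, a share like that of the E13.5 libraries, with only 1.89 CPM of Slc4a1, below the 14.7 CPM of the lowest E13.5 library. The labels do not say what the replicate numbers share, and no cause was tested.

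Between the genotypes no member passed edgeR's test at any age. At E13.5 all 8 members were lower in null, with log2 fold changes from -3.72 (SE 1.74, Hba-x) to -1.44 (SE 1.22, Hbb-bs), an adjusted p of 0.988 each and overlapping groups. Without wild-type replicate 3 they were -0.02 for Hba-a1, -0.02 for Hba-a2, -0.18 for Hba-x, -0.22 for Hbb-y, 0.55 for Hbb-bh1, 0.59 for Hbb-bs, 0.21 for Hbb-bt and -0.12 for Alas2. The size of the E13.5 difference therefore rests on 1 library. At this age 0 of 8 members were called, against 0.00606% of 16508 genes, which is 1 gene.

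At E18.5 the 5 members that could be tested had log2 fold changes of -0.86 for Alas2 to -0.56 for Hbb-bt (edgeR adjusted p from 0.735 to 0.855), with 0 of 5 called against 4.99% of 16322 genes. With the replicate number as a block, edgeR's adjusted p was 0.0511 for Alas2 and 0.158 to 0.310 for the globins. None of the 5 members was called there either. At PND8 they were higher in null by 2.15 (SE 0.97, Alas2) to 3.40 (SE 1.40, Hba-a1) on the log2 scale (edgeR adjusted p from 0.337 to 0.392), again with 0 of 5 called, against 0.349% of 17785 genes. Without null replicate 1 they were 0.98 (Alas2) to 1.40 (Hba-a1). The groups overlapped, and the highest library, null replicate 1, had 711 CPM of Hba-a2 against 86.1 and 50.5 CPM in the other null libraries.

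At 12wk globin levels were higher in the null libraries without passing edgeR's test. Hba-a1 was higher by 1.94 on the log2 scale (SE 0.41, unadjusted p = 0.00171, edgeR adjusted p = 0.338), Hbb-bs by 2.06 (SE 0.51, adjusted p = 0.368) and Hbb-bt by 2.26 (SE 0.55, adjusted p = 0.368), and for these 3 each null library lay above each wild-type library. Hba-a2 (1.68, adjusted p = 0.423) and Alas2 (0.69, adjusted p = 0.729 in edgeR) overlapped. Not overlapping were 3 of 5 members, against 9.52% of genes tested, and 0 of 5 passed edgeR's test, against 0.0115% of 17396 genes, which is 2 genes, with 1675 genes at an unadjusted p under 0.05. Hbb-bs and Hbb-bt share reads, as do Hba-a1 and Hba-a2, so these are not 3 separate results. In null replicate 3 Hba-a1 took 36.9% of the adult alpha counts, against 17.8% to 24.7% in the other 12wk libraries. Its Hba-a2, at 59.6 CPM, lay within the wild-type range of 30.5 to 68.9 CPM. DESeq2 called Hba-a1, Hbb-bs and Hbb-bt, with adjusted p of 0.000453, 0.00179 and 0.00274, in a fit that called 326 genes. The globin share was 0.0109% ± 0.00342 (SD, n = 4) in wild type and 0.0405% ± 0.0340 (SD, n = 3) in null (exact two-sided permutation test, p = 0.0571, the smallest possible, adjusted p = 0.143). Null replicate 4 was highest, and it also had the most endothelial markers, 1934 CPM against 563 to 821 CPM in the other 6 libraries, and leukocyte markers, 407 against 227 to 325 CPM. Their part was not tested. Without it the 3 log2 fold changes were 1.26, 1.06 and 1.37, and that of Alas2 turned to -0.18.

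**Figure D5:**
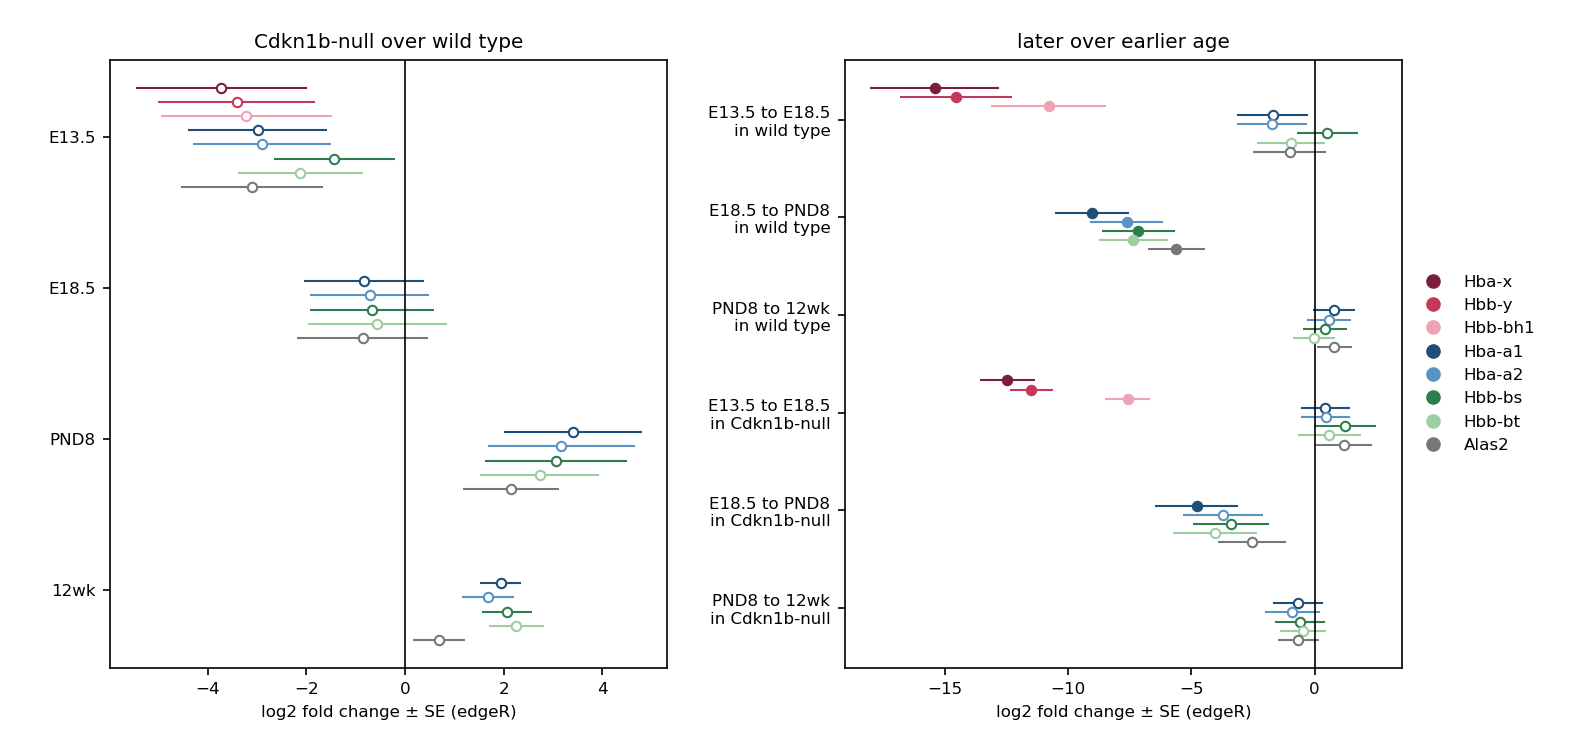
Points give the log2 fold change of each member with its standard error, for the effect of genotype at each age (left, null over wild type) and for each age step in each genotype (right, later over earlier); filled points passed edgeR's test after adjustment. No genotype point is filled, and the filled age points are the embryonic genes from E13.5 to E18.5 and the adult genes and Alas2 from E18.5 to PND8, in null Hba-a1 alone.

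Whether a member's course over age differed between the genotypes was tested with an interaction term over all 29 libraries. In edgeR's test 0 of 8 members passed, against 0.806% of 20359 genes. Hba-a1 had the smallest value (unadjusted p = 0.0120, edgeR adjusted p = 0.241). DESeq2 gave it an adjusted p of 0.0306, gave none to Hba-x and Hbb-bh1, and called none of the remaining 5.

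Genes known to act in the switch from embryonic to adult globins were looked at beside the members. Of 9 such regulators, 2 fell from E13.5 to E18.5 in wild type: Bcl11a, a repressor of embryonic globin genes (log2 fold change -1.34, SE 0.34, edgeR adjusted p = 0.0127), and the maintenance DNA methyltransferase Dnmt1 (-1.30, SE 0.16, edgeR adjusted p = 0.000235). That is near the 17.5% of all genes called lower in this step. Without wild-type replicate 3 at E13.5, a fit added after seeing the data, Bcl11a fell by 0.83 (edgeR adjusted p = 0.00852) and Dnmt1 by 1.31 (edgeR adjusted p = 0.000449), and Zbtb7a, Mbd2 and Nr2c2 rose, by 0.59 to 1.00. In null 3 rose (Zbtb7a, Mbd2 and Nr2c2, by 0.55 to 0.73), in a step where 15.8% of all genes rose, and Hic2 fell by 0.97 on the log2 scale. The list's median log2 fold change was -0.14 in wild type and -0.04 in null, beside 0.01 and 0.02 over all genes. Bcl11a had 10.7 to 27.6 CPM in E13.5 wild type, highest in replicate 3, and 6.26 to 7.72 CPM at E18.5. From E18.5 to PND8, when globin RNA fell, 8 of the 9 rose and 1 fell in each genotype. Over all genes, 37.6% were called higher in wild type and 38.9% in null. Bcl11a was up by 2.89 (SE 0.11, adjusted p = 3.37e-08) in wild type in edgeR's test, at 44.3 to 46.4 CPM. These genes are also expressed outside red cells. Between genotypes 1 of the 9 passed at any age, Dnmt1, which was higher in null at E18.5 (130.4 ± 19.7 against 70.8 ± 14.0 CPM, SD, n = 4 each; edgeR log2 fold change 0.91, SE 0.15, adjusted p = 0.00696).

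The 4 wider red cell lists had negative median log2 fold changes from E18.5 to PND8 in both genotypes. Their sums did not all fall. Membrane genes summed to 158 to 1718 CPM in E18.5 wild type and 171 to 201 CPM at PND8, and to 140 to 1067 and 170 to 191 CPM in null. Summed erythroid transcription factors were higher at PND8 by median, at 317 against 234 CPM in wild type and 316 against 201 CPM in null. From E13.5 to E18.5 0 of 17 red cell membrane genes passed in either genotype, with medians of -0.0036 in wild type and 0.76 in null. Without wild-type replicate 3 at E13.5 the wild-type median was 2.45 and Icam4 rose (edgeR adjusted p = 0.0136). Of the other red cell genes 0 of 15 passed in wild type, and without that library 4 rose, namely Epor, Tspan33, Blvrb and Ube2l6. From E18.5 to PND8, where 36.9% of all genes were called lower in wild type and 38.5% in null, 11 of the 15 membrane genes tested fell and Ank1 rose in wild type, with a median log2 fold change of -3.97 beside 0.01 over all genes, among them Gypc (-1.14), Icam4 (-3.23) and Dmtn (-3.97). In null 5 of 14 fell and 2 rose, a share called lower near that of all genes, with a median of -2.68. Of the other red cell genes 9 of 12 fell in wild type, with Bnip3l (-1.67), Ube2l6 (-3.75) and Car2 (-7.84) among them, and 8 of 13 in null. Of the haem synthesis genes 6 of 13 fell in each genotype, not far from the share of all genes, with medians of -0.62 and -0.65, among them Fech (-1.68) and Slc25a38 (-1.27) in wild type. Erythroid transcription factors divided, with 7 of 12 lower and 4 higher in wild type and 8 of 13 lower and 4 higher in null. Gata1, the central red cell factor, was among those that fell (-3.34 in wild type and -3.67 in null), while Ldb1, Cbfa2t3 and Zfpm1 rose. Markers of other blood cells were lower in this step too. Of the leukocyte markers tested 9 of 11 fell in wild type (median -2.35) and 9 of 13 in null (median -2.08), and of the platelet markers 2 of 2 and 4 of 4. Their part in the fall of the red cell lists was not tested. Between genotypes none of the genes in these 4 lists passed at any age.

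Gata1 did not follow the globins at E18.5. It had 25.4, 22.7, 41.0 and 25.0 CPM in wild-type replicates 1 to 4 and 27.6, 32.6, 41.5 and 35.1 CPM in null, without the drop in replicates 2 and 4 that globins and Slc4a1 showed. From E13.5 to E18.5 it rose in null (log2 fold change 2.35, SE 0.46, edgeR adjusted p = 0.00798), where no member did.

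Over the 29 libraries, the genes whose log2(CPM + 0.5) was most like the adult globin sum were Car2 (Pearson r = 0.916), Rfesd (0.912), Gcnt1 (0.904), Ube2l6 (0.895), Ablim3 (0.892), Bnip3l (0.892), Fabp7 (0.891) and Rmc1 (0.889), of 13888 genes ranked. For the embryonic sum they were Utf1 (0.981), Foxh1 (0.980), Prdm14 (0.979), Myl7 (0.979), Phlda2 (0.975), Calcoco2 (0.974), Rhox9 (0.974) and Rhox6 (0.969). The first set includes 3 genes of the red cell lists. The second holds genes present at E13.5 and nearly absent later, such as Utf1 with medians of 78.5 CPM at E13.5 and 0.331 CPM at E18.5 in wild type. These values describe a shared course over age and depth, carry no p, and rest on libraries that fall into age clusters.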

How the data were processed

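RNA of dissociated ovary cells was sequenced, and the authors deposited 1 table of expected counts per gene for all 29 libraries, made with Trim Galore, FastQC 0.11.5, STAR 2.5.2 and RSEM 1.3.0 per the submitters' processing notes. The genome build, annotation and strand setting are not given in the sources used here. RSEM divides reads that match several genes, so 31.361% of nonzero values were fractional. Of the 51912 gene IDs, 51633 were paired with a symbol through a reference name table.

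Counts were rounded to whole numbers for the tests. Each comparison used its own groups in edgeR 4.0.16 (R 4.3.3; limma 3.58.1), with a filter on low counts (minimum count 10, minimum total 15), TMM scaling and the quasi-likelihood F test. P-values were adjusted by Benjamini-Hochberg over all genes tested, with a threshold of 0.05. The procedure was tested on simulated counts with known changes, the same spread for every gene and no outlying library. The adult globins and Alas2 varied more than that between the E18.5 libraries, so the simulation does not cover tests on them. CPM is the count over the library total, without TMM. Shares were compared by exact permutation tests (SciPy 1.17.1) adjusted over 20 tests. Wilson intervals are at 95%, and a count of 0 is given a limit of 3 counts. Alternatives were RLE size factors, library sizes without globins, no filter, DESeq2 1.42.0, each replicate left out and the replicate number as a block. Shares were also taken per transcript length, over beta-type genes alone and over TMM-scaled totals. By mean correlation of their deviations from the group means, same-numbered libraries were most alike between E13.5 and E18.5 in null (0.105 to 0.208 in 3 pairs). All pairs were also positive between the genotypes at E18.5 (0.039 to 0.136) and at 12wk (0.025 to 0.16). The labels name nothing shared.

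The members and 15 gene lists (150 symbols, 147 matched) were chosen with earlier results of these data known. Lists covered other globins, haem synthesis, iron handling, red cell membrane, other red cell genes, erythroid transcription factors, globin switching regulators and markers of leukocytes, platelets, endothelium, liver, ovary somatic cells, germ cells, mesonephros, and adrenal and sympathetic cells. Named are the 8 members, up to 4 called genes of a list by smallest p, up to 4 by highest mean E13.5 CPM, and the 8 genes most like each globin sum among those with a mean CPM of at least 1; any other name is said to be picked later or follows from a count of 5 or fewer. Some genes that this rule names are not reported here. Hba-a1 with Hba-a2 and Hbb-bs with Hbb-bt share reads. Coordinates and coding sequences are from GENCODE M21 and promoter flanks from RefSeq GRCm38.p6, which may differ from the authors' build.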

Additional observations from a re-analysis of the deposited data

Results flagged for a closer look

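In groups of 4 libraries, a value was singled out where its gap to the nearest other library took more of the group's range than Dixon's 95% limit allows. Chance singles out about 1 in 20 groups, and 12 of 45 were singled out here. Of these, 9 are the wild-type replicate 3 at E13.5: Hba-a1 (41555 CPM, others 1472 to 2217), Hba-a2 (69204 CPM, others 2523 to 4103), Hba-x (18609 CPM, others 484 to 558), Hbb-y (43572 CPM, others 1572 to 1603), Hbb-bh1 (1622 CPM, others 31.6 to 42.4), Hbb-bs (10213 CPM, others 610.1 to 1494), Hbb-bt (4917 CPM, others 245 to 539), Alas2 (628 CPM, others 19.4 to 32.5) and the globin share of all counts (19.0%, others 0.702% to 1.05%). These 9 values come from 1 library and are not independent.

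The remaining 3 are separate libraries. At E18.5 wild-type replicate 1 had 0.519 CPM of Hba-x, from 9 counts, against 0 to 0.0535 CPM in the others. In wild-type replicate 4 of the same age the embryonic share of globin counts was 0.0532%, against 0.000752% to 0.00919%. At 12wk wild-type replicate 1 had 17.4 CPM of Hba-a1, against 10.0 to 11.3 CPM.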

How the results depend on the processing

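Of 301 recomputed counts of members called and share differences, 281 stayed the same, 12 moved and 8 turned. For a count, the same means an equal or similar number of members. For a share difference it means only an unchanged direction. No share test could fall under 0.05 after adjustment with these numbers of libraries and tests. Of 714 recomputed single members, 673 kept their direction and their side of the threshold, 23 turned, 13 newly passed and 5 no longer passed. The causes were not tested. DESeq2 called 3 members at 12wk between genotypes, 5 from E18.5 to PND8 in null and 1 in the interaction. Without the filter on low counts, 8 were called from E18.5 to PND8 in wild type and 2 in null. DESeq2 gave no adjusted p to any of the 8 members at E13.5 between genotypes, to the 3 embryonic genes from E13.5 to E18.5 in wild type, to Hbb-bs from PND8 to 12wk in null, or to Hba-x and Hbb-bh1 in the interaction. Where values rest on few counts, as all embryonic shares after E13.5 do, depth limits them.

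Leaving out 1 replicate gave 0 to 2 members called from E18.5 to PND8 in null, and left the other counts as they were. The null minus wild-type difference in the embryonic share ranged from -11.1 to 4.55 percentage points at E13.5 (turned without null replicate 3), from -0.00711 to 0.0273 at E18.5 (without null replicate 4) and from -0.00728 to 0.00307 at 12wk (without wild-type replicate 4 or null replicate 3). For the globin share the difference at E13.5 ranged from -6.09 to 0.00285 points, and the change from E13.5 to E18.5 in wild type from -5.13 to 0.955, both turned without wild-type replicate 3. In null, that change ranged from -0.277 (without E18.5 replicate 1) to 0.540, and from PND8 to 12wk from -0.0527 to 0.0224 (without PND8 replicate 1). On the log2 scale, genotype effects at E13.5 ranged from -3.65 to 0.55 for Hbb-bh1, -2.62 to 0.59 for Hbb-bs and -2.95 to 0.21 for Hbb-bt, turned without wild-type replicate 3, and at 12wk from -0.18 to 1.03 for Alas2, turned without null replicate 4. From E13.5 to E18.5 in wild type the ranges were -2.34 to 1.20 for Hba-a1, -2.32 to 1.10 for Hba-a2, -0.015 to 2.47 for Hbb-bs, -1.43 to 1.32 for Hbb-bt and -1.72 to 1.90 for Alas2, turned without E13.5 replicate 3 (for Hbb-bs, without E18.5 replicate 3). In null they were -0.35 to 0.79 for Hba-a1, -0.51 to 0.79 for Hba-a2 and -0.47 to 1.42 for Hbb-bt, turned without E18.5 replicate 1. From PND8 to 12wk the range was -0.41 to 0.74 for Hbb-bt in wild type, and in null, turned without PND8 replicate 1, -1.35 to 1.31 for Hba-a1, -1.89 to 1.13 for Hba-a2, -1.59 to 1.14 for Hbb-bs, -1.37 to 1.09 for Hbb-bt and -1.53 to 0.49 for Alas2.

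With the replicate number as a block, 5 members were called from E18.5 to PND8 in null and no other count of members called changed. From PND8 to 12wk Hbb-bt in wild type (0.71) and Hba-a1 in null (0.18) turned. The libraries of these steps share only a number.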

Other observations

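One globin outside the blood took another course. Cygb, the cytoglobin of fibroblast-like cells, rose from E13.5 to E18.5 by a log2 fold change of 0.97 in wild type (SE 0.20, edgeR adjusted p = 0.0038) and 0.54 in null (SE 0.10, edgeR adjusted p = 0.00431). It rose again to PND8, by 1.01 and 1.07. The red cell globins fell in that step, though in null only Hba-a1 passed edgeR's test. Mb, the muscle globin, had a median of 0.821 CPM at E13.5 and 0.0277 CPM at E18.5 in wild type, too low to be tested. Hbq1b, the theta globin, followed the red cell genes at E18.5, with 8.39, 0.166, 16.3 and 0.191 CPM in wild-type replicates 1 to 4 and 1.66, 0.170, 3.38 and 0.204 CPM in null. Hbb-bh0 had 0.0402 to 5.89 CPM in the 7 E13.5 libraries and was at 0 in the 22 later ones, as the other embryonic beta-type genes nearly were.

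Of 8 iron handling genes 1 was called from E13.5 to E18.5 in wild type and 2 in null, all higher, and from E18.5 to PND8 2 were called higher and 3 lower in wild type and 2 higher and 4 lower in null. Slc40a1, the iron exporter ferroportin, rose from E13.5 to E18.5 by 1.49 on the log2 scale in wild type (SE 0.31, edgeR adjusted p = 0.00409) and 1.27 in null (SE 0.12, edgeR adjusted p = 0.000208), and fell to PND8 by 1.28 and 0.64. Ftl1, the ferritin light chain that stores iron, fell from E18.5 to PND8 by 2.63 in wild type and 2.29 in null. Both genes are also expressed outside red cells, and their relation to the globins was not tested.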
